A study of Mus musculus with 28 samples.

Results

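The 43 genes described here encode proteins that carry a cell through mitosis. They were taken as a list of gene symbols and matched to the count tables of sorted mouse epidermal stem cells, which hold 47729 gene IDs. All 43 were found, and all 43 passed the filter on low counts, among 17299 genes tested. RNA was sequenced from 16 libraries in 8 groups of 2 libraries each. The skin came from C57BL/6 mice labelled female, in which treatment began at postnatal day 60. Each mouse received imiquimod, a Toll-like receptor 7 agonist that inflames the skin, or the plain cream vanicream as control, on the skin surface for 6 days. Groups were taken at day 6, at day 30 without a wound, and 6 h or 12 h after wounding at day 30, each with control and imiquimod arms. Cells positive for integrins α6 and β1 and for Sca1 and negative for CD34 were sorted in all groups, so each library is a bulk population enriched for basal epidermal stem cells. The labels do not say whether the libraries of a group came from separate mice, so p values measure only the spread between these libraries.

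Mitosis is driven by the kinase Cdk1 bound to cyclin B, with Plk1 and Aurora kinases acting beside it. Chromosomes are compacted by condensins and topoisomerase II. The spindle assembly checkpoint holds the anaphase-promoting complex in check until kinetochores are attached to microtubules, and the central spindle then guides cytokinesis. Most of these genes are transcribed late in the cell cycle, when a complex of MuvB with B-Myb and FoxM1 acts at an element called the cell cycle genes homology region (CHR). Epidermal stem cells in the basal layer divide throughout life to replace the differentiated layers above them.

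The promoters of the members share short elements that the list did not use, and these are shown first because they are known to set late cell cycle transcription. Promoter windows of 300 bases, 250 before and 50 after the gene start, came from RefSeq (GRCm38.p6) and were found for 35 of the 43 members, with the first listed window used for each gene. They were searched on both strands for the CHR letters TTTGAA and for CCAAT, the box bound by NF-Y. The 120 bases before the start are given here for 4 members that hold both and for Birc5, whose window holds neither. Capitals mark these CHR and CCAAT letters on either strand (TTCAAA is the reverse complement of the former). Each run reads 5′ to 3′ on the gene's strand. Cdc20 activates the anaphase-promoting complex, Ube2c is its ubiquitin-conjugating enzyme, Cdk1 is the mitotic kinase, Top2a untangles sister chromatids and Birc5 (survivin) belongs to the chromosomal passenger complex.
Cdc20 (chr4:118437344-118437463, minus strand): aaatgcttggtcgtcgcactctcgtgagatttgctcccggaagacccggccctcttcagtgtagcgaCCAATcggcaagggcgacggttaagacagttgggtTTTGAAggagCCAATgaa
Ube2c (chr2:164769809-164769928, plus strand): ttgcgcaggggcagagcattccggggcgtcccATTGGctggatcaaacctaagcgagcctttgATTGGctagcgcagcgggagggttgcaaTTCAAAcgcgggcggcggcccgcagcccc
Cdk1 (chr10:69352913-69353032, minus strand): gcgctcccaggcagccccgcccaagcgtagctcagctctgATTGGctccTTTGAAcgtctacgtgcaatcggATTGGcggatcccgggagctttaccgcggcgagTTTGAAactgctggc
Top2a (chr11:99024190-99024309, minus strand): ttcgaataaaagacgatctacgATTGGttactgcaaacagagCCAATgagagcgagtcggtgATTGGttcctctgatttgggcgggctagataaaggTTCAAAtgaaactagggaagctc
Birc5 (chr11:117849117-117849236, plus strand): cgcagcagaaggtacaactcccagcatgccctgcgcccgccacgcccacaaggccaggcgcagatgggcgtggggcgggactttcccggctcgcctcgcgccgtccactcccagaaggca

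The CHR letters occurred in 27 of the 35 member windows (77.1%), against 4893 of 27025 genes in the promoter table (18.1%). CCAAT also occurred in 27 of 35 (77.1%, against 37.9% of all genes), and 24 of 35 held both (68.6% against 7.12%). Among the 11511 genes tested that had a window, 12.2% held the CHR letters, 38.2% CCAAT and 5.17% both. Among 64 other genes of G2 and mitosis with a window 34 held the CHR letters (53.1%), while among 31 DNA replication genes 4 did (12.9%). The letters of an E2F site, TTTGGCGC or TTTCCCGC on both strands, were added to the search after the data were seen. They occurred in 10 of the 31 DNA replication windows (32.3%) and in 2 of the 35 member windows (5.71%, Ncapd2 and Ncapg). The share was 1.63% of all genes and 2.88% of genes tested that had a window. Within 60 bases before to 20 bases after the start, 16 of the 35 members held the CHR letters (45.7%), against 4.44% of all genes. In Cdc20 the CHR letters began 18 bases before the start, in Cdk1 15, in Top2a 23 and in Ube2c 29. A single pair of CHR and CCAAT matches overlapped in the members, in Cdca8. The 8 windows without the CHR letters were those of Birc5, Bub1, Ccnb1, Cenpe, Mad2l1, Ncaph, Nuf2 and Nusap1. A match is a description of letters and not of a bound site.

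**Figure D1:**
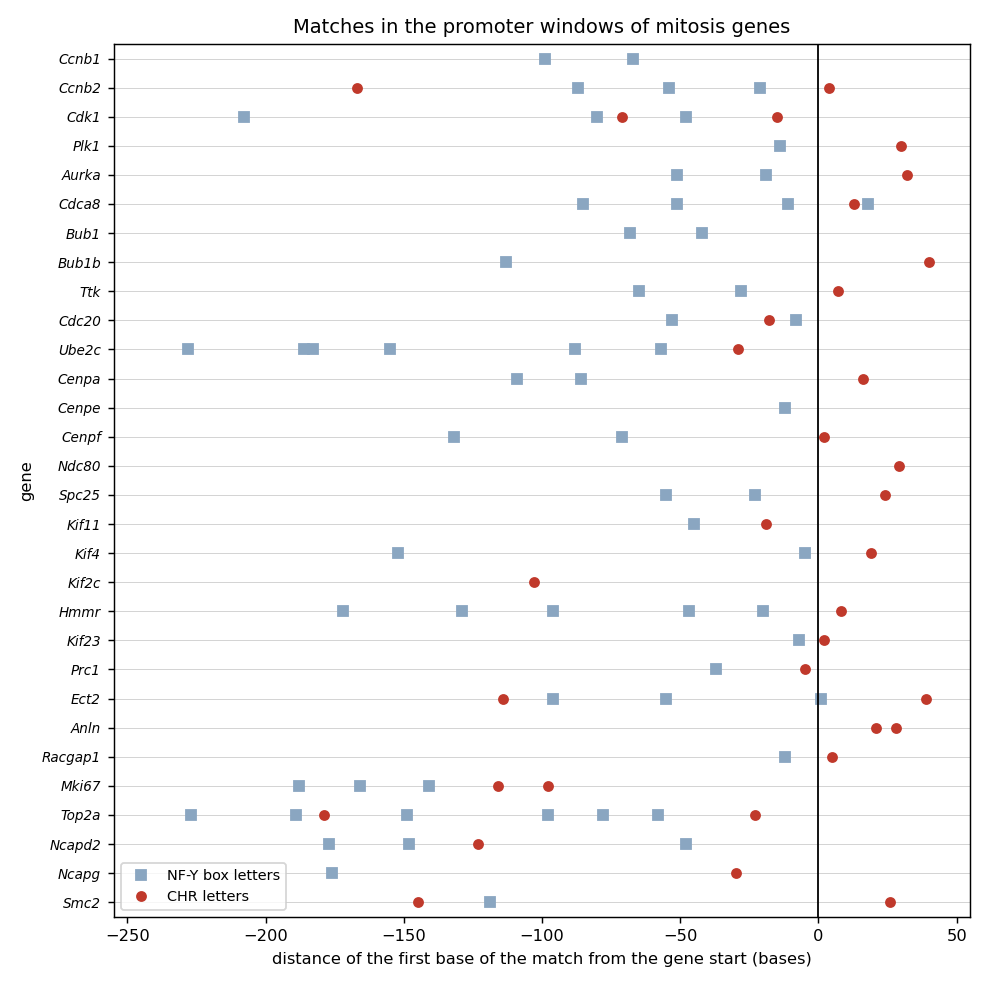
Position of CHR letters (TTTGAA, red circles) and NF-Y box letters (CCAAT, blue squares), on both strands, in the promoter windows of the 30 members that hold either, as the distance in bases of the first base from the gene start (vertical line). CHR letters lie within 60 bases before to 20 bases after the start in 16 of the 35 members with a window.

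Library totals ran from 23623968 to 76993427 counts. The basal keratins Krt5 and Krt14 stood at 11340 CPM (a gene's reads scaled to a common library total) or more in every library, while Cd3e, a marker of T cells, and Ly6g, a marker of neutrophils, stood at 0.172 CPM or less. The CD34 gene, whose protein the sort excluded, ranged from 0.193 to 10.4 CPM. The 2 day 30 libraries numbered 1, from control and imiquimod skin, held at most 1 read of Xist and 6023 or 7830 reads of 4 Y-linked genes, against their female label. In each of the other 14 libraries Xist reached 11484 reads or more, with 2 Y-linked reads at most. The counts of members called in comparisons that rest on day 30 are therefore also given without both. Most values of single genes, other lists and markers are not. Library 1 of the 6 h control wounds stood apart from library 2, since all 43 members were higher in it, by a median of 1.8-fold. In the 12 h imiquimod wounds all 43 were higher in library 1 than in library 2, by a median of 1.42-fold. In the other 6 groups the median ratio between the libraries was at most 1.18. Mitochondrial genes held 7.65% of the counts in library 1 of day 6 imiquimod and at most 3.31% in the other 15 libraries. Without that library 32 members rose at day 6, against 31 with it.

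The sum of the 43 genes was highest in inflamed skin and lowest, by group mean, in 12 h wounds after prior imiquimod. It was 3587 and 2967 CPM in the day 6 control libraries and 4913 and 5136 CPM with imiquimod. At day 30 it was 1746 and 1890 CPM in control and 1793 and 1776 CPM in imiquimod skin. After wounding it was 1987 and 1106 CPM (6 h control), 1220 and 1136 CPM (6 h imiquimod), 1296 and 1272 CPM (12 h control), and 1145 and 842 CPM (12 h imiquimod). By group mean, day 6 imiquimod was the highest of the 8 groups for 40 members and day 6 control for the other 3, Cenpf, Kif23 and Anln. These CPM lack the further scaling of the tests below, in which all 43 day 6 log2 fold changes were positive (lowest 0.05). The lowest group was the 12 h imiquimod wounds for 36 members and the 6 h imiquimod wounds for 7. The ratio of the highest to the lowest group mean ran from 1.92 for the checkpoint kinase gene Ttk to 13.9 for the cyclin gene Ccnb1. In a sorted bulk population, fewer cells in mitosis and less of each transcript per cell cannot be told apart.

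**Figure D2:**
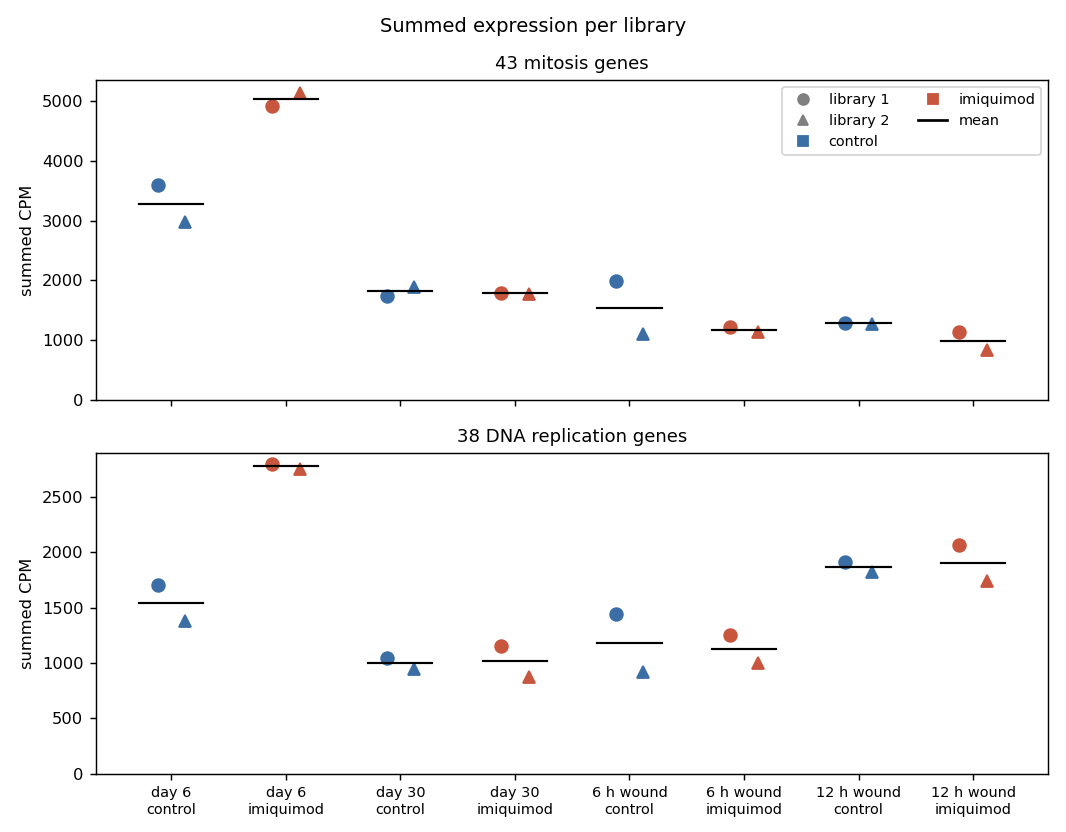
Summed CPM of the 43 mitosis genes (top) and of 38 DNA replication genes (bottom) in each library (circles library 1, triangles library 2, blue control, red imiquimod, black bars group means). The mitosis sum is at 4913 and 5136 CPM in day 6 imiquimod and between 842 and 1296 CPM in the 12 h wounds, while the replication sum at 12 h lies between 1736 and 2060 CPM.

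**Figure D3:**
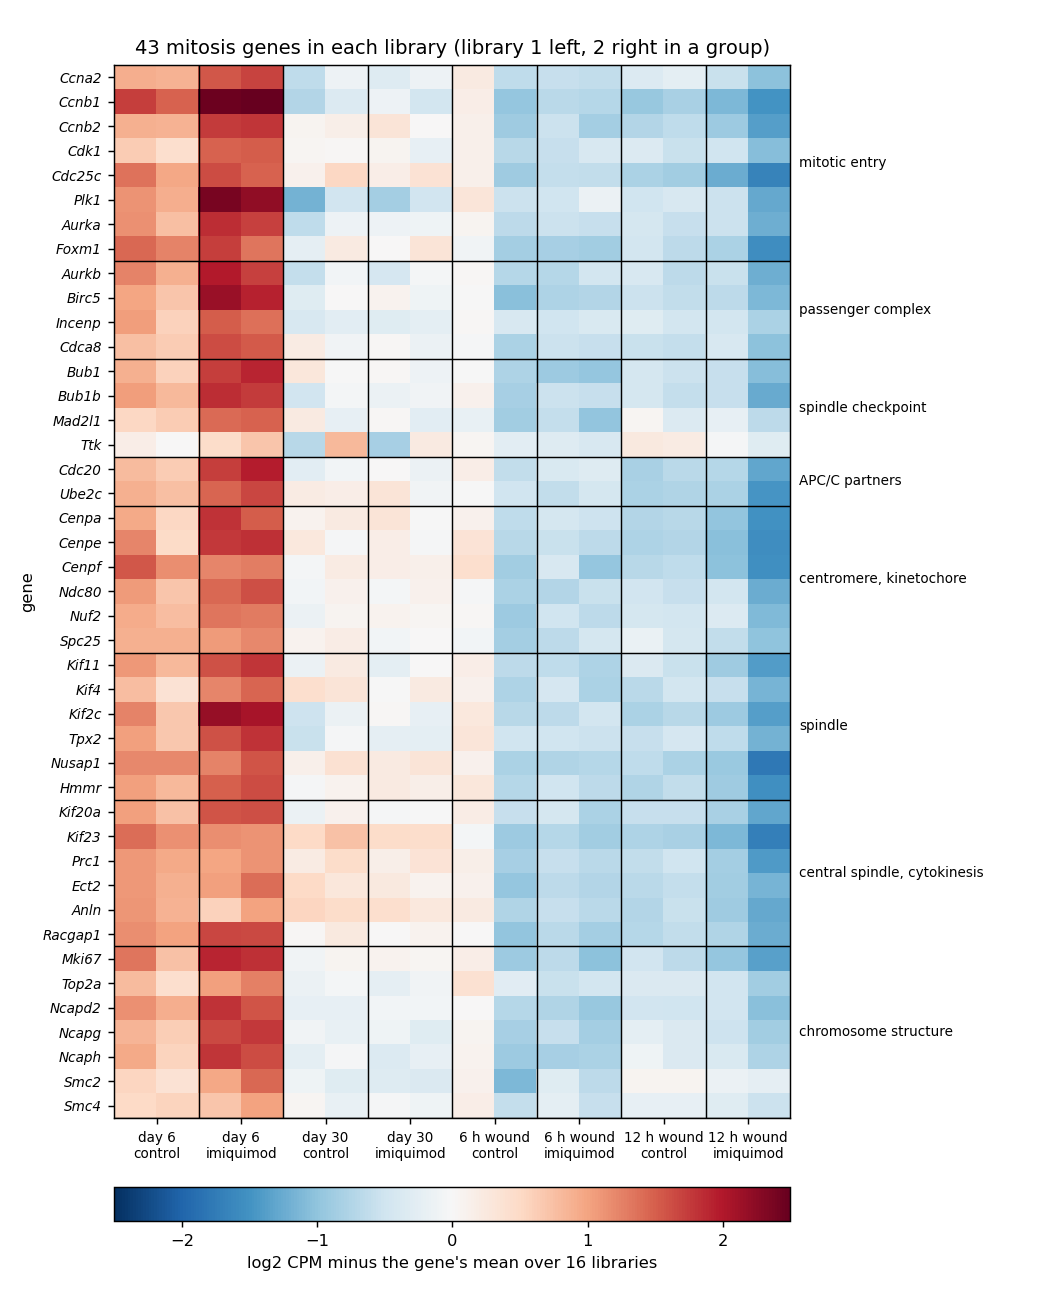
Each of the 43 genes (vertical, grouped by role) in each of the 16 libraries (horizontal), as log2 CPM minus the gene's mean over the libraries (red higher, blue lower, scale from -2.5 to 2.5). The day 6 imiquimod libraries are the reddest for most genes, library 1 of the 6 h control wounds is paler than library 2, and Ttk differs between the 2 libraries of each day 30 group.

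The comparison at day 6 asked how inflamed skin differed from control skin. Of the 43 members 31 rose with imiquimod and 0 fell (72.1%, edgeR quasi-likelihood test, adjusted p under 0.05), against 21.6% of all genes tested that rose. All 43 log2 fold changes were positive, from 0.05 to 1.50, with a median of 0.96, against a median of 0.10 over all genes. DESeq2 called 32 members, and 34 passed an unadjusted p under 0.05. The number fell to 17 without library 2 of day 6 control and to 16 without library 2 of day 6 imiquimod. With any 1 library left out, 14 members passed throughout, namely Plk1, Birc5, Cdc20, Kif2c, Bub1, Ncapg, Cdk1, Ncaph, Cenpa, Ccnb2, Cdca8, Bub1b, Ncapd2 and Incenp. The other 17 missed the threshold without library 2 of 1 or both groups, with adjusted p values from 0.0505 (Mad2l1) to 0.262 (Smc2).

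Among the 8 genes of mitotic entry 6 rose, with a group median of 1.07. Plk1, the Polo-like kinase (ENSMUSG00000030867.7, chromosome 7, 122159435 to 122169884), stood at 32.2 and 27.8 CPM in control and at 77.1 and 69.5 CPM in imiquimod libraries. The groups did not overlap, and its log2 fold change of 1.50 ± 0.28 (SE, n = 2 libraries per group, edgeR adjusted p = 0.0013) was the largest among the members. Cdk1 (ENSMUSG00000019942.12, chromosome 10, 69335146 to 69352912) went from 67.3 and 58 to 121 and 123 CPM (1.18 ± 0.23, adjusted p = 0.00176). Its cyclin gene Ccnb1 went from 56.8 and 47.5 to 94.3 and 100 CPM (1.12 ± 0.27, adjusted p = 0.0057). That call ended without library 2 of day 6 control (adjusted p = 0.0572) or of day 6 imiquimod (0.0693). Ccnb2 (1.11), Aurka, the centrosomal Aurora kinase (1.03), and Ccna2, the cyclin of S phase and G2 (0.95), rose as well. The 2 members of this group that did not pass were Foxm1 and the phosphatase gene Cdc25c (0.59), whose product activates Cdk1. Foxm1, the transcription factor of late cell cycle genes, stood at 68.5 and 59.9 CPM in control and at 83.6 and 64.5 CPM in imiquimod libraries, which overlapped (0.41 ± 0.24, adjusted p = 0.21).

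The chromosomal passenger complex, which corrects faulty attachments of chromosomes, rose with all 4 members. Birc5 went from 37.8 and 31.1 to 85.5 and 72.7 CPM (1.41 ± 0.25, adjusted p = 0.000837). Its kinase gene Aurkb went from 42.9 and 33.7 to 71.7 and 59.4 CPM (0.98 ± 0.26, adjusted p = 0.0099, and 0.0906 without library 2 of day 6 control). The scaffold gene Incenp (0.84) and the borealin gene Cdca8 (1.11) rose too. In the spindle assembly checkpoint 3 of 4 rose. Bub1, a checkpoint kinase, went from 24.7 and 19.8 to 44.2 and 49.5 CPM (1.29 ± 0.24, adjusted p = 0.00111), with Bub1b and Mad2l1 both at 1.08. Ttk, the kinase that starts checkpoint signalling, stood at 31.3 and 28.4 CPM in control and 38.7 and 45.4 CPM in imiquimod libraries. It missed the threshold (0.72 ± 0.38, adjusted p = 0.169) but passed in the fit with the replicate number as a block (adjusted p = 0.00546). Downstream of the checkpoint, Cdc20 (ENSMUSG00000006398.15, chromosome 4, 118432901 to 118437343) went from 99.3 and 89.9 to 190 and 223 CPM (1.35 ± 0.23, adjusted p = 0.000618), and Ube2c rose by 0.96. Of 14 core subunits and regulators of the anaphase-promoting complex 6 rose, with a median of 0.30, led by Anapc7 at 0.74.

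Genes of chromosome structure rose in 6 of 7 cases. Mki67, whose product Ki-67 coats mitotic chromosomes (ENSMUSG00000031004.7, chromosome 7, 135689784 to 135716450), went from 421 and 280 to 626 and 593 CPM (1.01 ± 0.27, adjusted p = 0.0103). Top2a (ENSMUSG00000020914.17, chromosome 11, 98992947 to 99024199) went from 330 and 254 to 385 and 452 CPM (0.74 ± 0.20, adjusted p = 0.0127). For both the groups did not overlap, and both calls ended without library 2 of day 6 control (Mki67 0.105, Top2a 0.12) or of day 6 imiquimod (0.0797 and 0.198). Condensin subunit genes rose by 1.18 (Ncapg, from 34.8 and 29.2 to 59.9 and 65.1 CPM), 1.15 (Ncaph), 0.98 (Smc2) and 0.88 (Ncapd2). The condensin ATPase gene Smc4 stood at 0.56 ± 0.21 (adjusted p = 0.0524, and 0.0105 with the replicate block). Of 10 genes of cohesin, the ring that holds sister chromatids together, 1 rose (Smc3, 0.41).

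Kinetochore genes rose in 3 of 6 cases, Cenpa, the centromeric histone (1.12), Cenpe, a kinetochore motor (1.11), and Ndc80, which binds microtubules (0.85). Its partner Nuf2 stood at 0.67 ± 0.25 (adjusted p = 0.0534, and 0.0286 with the replicate block). Cenpf stood at 115 and 88 CPM in control and at 90.6 and 94.6 CPM in imiquimod libraries, so that the imiquimod values lay inside the control range (0.09 ± 0.31, adjusted p = 0.852). Spindle genes rose in 5 of 6 cases, led by the microtubule depolymerase gene Kif2c, which went from 41.9 and 28 to 79.6 and 73.1 CPM (1.34 ± 0.27, adjusted p = 0.00202). Tpx2 (1.07), which activates Aurora A on the spindle, the motor genes Kif4 (0.98) and Kif11 (0.96) and the receptor gene Hmmr (0.86) rose as well, whereas Nusap1 missed the threshold (0.44).

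Genes of the central spindle and cytokinesis moved least at day 6. Only Kif20a (0.93) and Racgap1 (0.79) of these 6 genes rose, and the group median was 0.35. Anln, whose product anillin scaffolds the contractile ring (ENSMUSG00000036777.7, chromosome 9, 22331214 to 22389211), stood at 226 and 192 CPM in control and at 157 and 213 CPM in imiquimod libraries. Kif23, the motor of centralspindlin (ENSMUSG00000032254.9, chromosome 9, 61917277 to 61946810), stood at 97.1 and 82 CPM in control and at 82.9 and 80.9 CPM in imiquimod libraries. In both genes the groups overlapped, and neither passed (Anln 0.05 ± 0.25, adjusted p = 0.895, Kif23 0.09 ± 0.22, adjusted p = 0.792). Prc1, which bundles central spindle microtubules (0.25 ± 0.24), and Ect2, which activates RhoA for the cleavage furrow (0.46 ± 0.26), did not pass either. The test scales libraries by TMM and the CPM do not, so a fold change and the CPM beside it can differ in direction, as for Anln, Kif23 and Cenpf. With plain library totals the median of all genes at day 6 moved to -0.11 and that of the members to 0.74, with 26 members called higher.

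The rise was shared by other cell cycle genes. Of 80 further genes of G2 and mitosis 45 rose and 1 fell, with a median of 0.70, and of 38 DNA replication genes 31 rose and 0 fell, with a median of 1.11. Mybl2, which encodes B-Myb, went from 10.5 and 7.13 to 39.3 and 29.3 CPM (2.16 ± 0.29). The gene that fell was Wee1, whose kinase restrains Cdk1. It went from 93.4 and 93.8 CPM in control to 21.1 and 33.9 CPM in imiquimod libraries (-1.53 ± 0.35). The numbers that rose were 19 of 80 and 16 of 38 without library 2 of day 6 control. Leaving out its imiquimod counterpart gave 20 of 80 and 20 of 38. Of 18 genes of the MuvB, pocket protein and E2F families 8 rose, led by E2f7 (1.57), E2f3 (1.34) and E2f8 (1.32), and Rbl2, which encodes the pocket protein p130, fell (-0.55). Markers of macrophages and monocytes also moved at day 6, with 9 of 14 higher. Their summed level was 93.3 to 135 CPM in control and 273 to 453 CPM in imiquimod libraries, and Adgre1, which defines mouse macrophages, went from 1.13 and 0.241 to 9.49 and 11.7 CPM. Markers of keratinocyte layers moved as well. Of 12 basal markers 6 were lower and 1 higher with imiquimod (median -0.63), and of 10 suprabasal markers 4 were higher and 1 lower (median 1.70). The part of these markers in the rise of the mitosis genes was not tested.

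At day 30 no member differed between imiquimod and control skin. By edgeR 0 of 43 passed, 0 had an unadjusted p under 0.05 and DESeq2 called 0, against 0.0116% of all genes called in either direction. The median log2 fold change was -0.08 and the range -0.53 to 0.17. Without both day 30 libraries numbered 1 no member passed either (1 unadjusted), and the median was -0.15. Mki67 stood at 158 and 175 CPM in control and at 177 and 173 CPM in imiquimod libraries (-0.01 ± 0.27). Plk1 stood at 6.56 and 10.6 against 8.21 and 10.6 CPM (0.06 ± 0.29), and Cdc20 at 47.9 and 55 against 58.2 and 52.2 CPM (0.03 ± 0.23). Top2a (-0.13), Cdk1 (-0.17), Ccnb1 (0.16), Aurkb (0.01) and Foxm1 (0.08) had groups that overlapped in the same way. The lowest value was that of Ttk, at 17.3 and 49.2 CPM in control and at 15.7 and 32.8 CPM in imiquimod skin. In both groups its low value was in the library numbered 1, which lacked Xist reads.

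The effect at day 6 was tested against that at day 30 as a single contrast. It was more positive at day 6 for 21 of 43 members and more negative for 0 (48.8%, against 13.7% of all genes more positive), with a median difference of 1.01. The largest differences were those of Bub1 (1.56 ± 0.34, adjusted p = 0.00631), Plk1 (1.45 ± 0.40, 0.0219), Ncaph (1.37 ± 0.34, 0.0128), Birc5 (1.36 ± 0.35, 0.015), Cdk1 (1.35 ± 0.33, 0.0113) and Ncapg (1.33 ± 0.32, 0.0112). Cdc20 (1.32) and Top2a (0.87) also differed, while Mki67 (1.02, adjusted p = 0.0715, and 0.0175 with the replicate block), Aurkb (0.98, 0.0762, and 0.0351 with the block), Ccnb1 (0.96, 0.0901) and Foxm1 (0.33, 0.54) did not pass. Top2a had an adjusted p of 0.0609 with the block. No call held with every library left out in turn. The count was 0 (18 unadjusted) without library 2 of day 30 imiquimod, 1 without library 2 of day 6 imiquimod, 5 without library 2 of day 30 control, 6 without library 2 of day 6 control and 9 without library 1 of day 30 imiquimod. It was 12 without both day 30 libraries numbered 1 and 5 with library totals.

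Control skin itself differed between day 6 and day 30, a comparison added after the levels were seen. Of the 43 members 12 were lower at day 30 and 0 higher (27.9%, against 9.45% of all genes lower), with a median of -0.55. Ccnb1 went from 56.8 and 47.5 CPM to 10.3 and 13.6 CPM (-1.80 ± 0.28, adjusted p = 0.00112), and Plk1 from 32.2 and 27.8 CPM to 6.56 and 10.6 CPM (-1.48 ± 0.29, adjusted p = 0.0045). These 2 calls held with any library left out. Aurkb (-1.06), Foxm1 (-1.0), Aurka (-0.99) and Kif2c (-0.98) fell as well, and the first 3 ended without library 1 of day 30 control (adjusted p from 0.0957 to 0.1) or of day 6 control (0.0828 to 0.104), as did Kif2c (0.132 and 0.188). Ttk (0.47 ± 0.38) and Kif4 (0.12 ± 0.26) had the only positive values. Mki67 (-0.74, adjusted p = 0.0644) passed with the replicate block (0.0194), while Top2a (-0.39), Cdc20 (-0.55) and Cdk1 (-0.16) did not pass in either fit. The count was 28 with library totals, which moved the median of all genes to -0.33, and 19 without the filter. It was 2 without library 1 of day 6 control and 5 (1 higher, 4 lower) without library 1 of day 30 control. Markers moved between these groups too. The summed suprabasal list stood at 6162 to 9703 CPM at day 6 and at 16450 to 30944 CPM at day 30. Of 14 macrophage markers 10 were lower and 1 higher at day 30. Their summed level went the other way, from 135 and 93.3 CPM at day 6 to 334 and 269 CPM at day 30. Of 10 fibroblast markers tested 6 were lower and 0 higher (median -5.98), and of 5 melanocyte markers 3 were lower and 0 higher. Col1a1, a fibroblast marker, went from 41.2 and 201 CPM at day 6 to 0.878 and 0.911 CPM at day 30. The part of these markers was not tested, and the day and the sex of the mice cannot be told apart in library 1 of day 30.

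The next comparisons asked how the members responded to a wound in skin that had received control cream. At 6 h, 9 of 43 were lower than in unwounded day 30 skin and 0 higher (20.9%, against 16.7% of all genes lower), a share near the background. The median was -0.42, and 7 members had positive values. Kif23 went from 52 and 61 to 35.6 and 19.7 CPM (-1.18 ± 0.22, adjusted p = 0.00143), and this call held with any library left out. Ect2 (-0.87), Anln (-0.84), Kif4 (-0.79), Cdc25c (-0.76) and Prc1 (-0.75) fell as well, so that 5 of 6 cytokinesis genes were among the 9. Each of these calls except that of Kif23 ended without library 2 of the 6 h control wounds (adjusted p from 0.169 to 0.329). Plk1 stood at 6.56 and 10.6 CPM before and at 18.2 and 10.3 CPM after wounding, with overlapping groups (0.59 ± 0.29, adjusted p = 0.13). The other positive values were 0.08 for Ccnb1 and Tpx2, 0.07 for Ccna2, 0.04 for Top2a, 0.03 for Kif2c and 0.01 for Incenp. Mki67 (-0.43), Cdk1 (-0.42), Aurkb (-0.13), Cdc20 (-0.15) and Foxm1 (-0.58, and adjusted p = 0.0262 with the replicate block) did not pass.

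This count depended on both libraries of the 6 h control wounds. Without library 1 29 members were lower (median -0.88), and without library 2 1 was (median -0.07). It was 3 without library 1 of day 30 control, 6 without library 2 of it and 2 without both day 30 libraries numbered 1. With the replicate block 15 were lower, Ccnb2, Foxm1, Cdca8, Bub1, Cenpa and Nusap1 being added. With library totals in place of TMM 1 was lower, and so it was when the fit held no other group.

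At 12 h in control skin 22 of 43 members were lower than at day 30 and 0 higher (51.2%, against 14.3% of all genes lower), with a median of -0.69. Kif23 went from 52 and 61 to 21.6 and 21.2 CPM (-1.59 ± 0.22, adjusted p = 0.000282). Anln went from 153 and 146 to 64 and 71.9 CPM (-1.33 ± 0.26, adjusted p = 0.00221), and Cdc25c from 9.11 and 12.1 to 4.93 and 4.64 CPM (-1.34 ± 0.27, adjusted p = 0.00275). In each of these genes both wound libraries lay below both day 30 libraries. Ect2 (-1.21), Nusap1 (-1.16) and Ube2c (-1.15, from 35.7 and 34.5 to 17.7 and 18.4 CPM) followed. Of the panel, Cdc20 (-0.77 ± 0.23, adjusted p = 0.0216), Foxm1 (-0.76 ± 0.25, 0.0344) and Cdk1 (-0.68 ± 0.23, 0.0405) passed. Mki67 went from 158 and 175 to 121 and 106 CPM (-0.75 ± 0.27, adjusted p = 0.0506), and passed once replicate number was a block (adjusted p = 0.0135). Ccnb1 (-0.54), Top2a (-0.45) and Aurkb (-0.39) did not pass, and Plk1 (0.16) and the condensin gene Smc2 (0.08) had positive values.

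All 6 cytokinesis genes and both partners of the anaphase-promoting complex fell at 12 h in control skin. So did 4 of 6 kinetochore, 4 of 6 spindle and 4 of 8 entry genes, 1 of 4 passenger and 1 of 4 checkpoint genes, and 0 of 7 genes of chromosome structure (3 at an unadjusted p under 0.05). Calls that held with any library left out were those of Kif23, Anln, Prc1, Ect2, Racgap1, Cdc25c, Ube2c and Cenpa. The other 14 ended without at least 1 library (adjusted p from 0.0587 for Kif4 to 0.25 for Spc25). Among these, the calls of Cdc20 and Foxm1 ended without library 1 or library 2 of the 12 h control wounds, or without library 2 of day 30 control. In those fits the log2 fold change ran from -0.69 to -0.86 for Cdc20 and from -0.60 to -0.85 for Foxm1. The call of Cdk1 ended without any 1 of the 4 compared libraries (-0.58 to -0.79). That of Nusap1 ended without library 2 of the 12 h control wounds (-1.09). The count was 9 without library 1 and 10 without library 2 of the 12 h control wounds, 14 without both day 30 libraries numbered 1, and 12 with library totals, which moved the median of all genes to 0.21.

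After prior imiquimod the members were also lower in wounds than at day 30. At 6 h 20 of 43 were lower and 0 higher (46.5%, against 18.6% of all genes lower), with a median of -0.67. Kif23 went from 51 and 50.1 to 22.4 and 20.2 CPM (-1.28 ± 0.22, adjusted p = 0.000691). Foxm1 went from 25.4 and 31.8 to 14.3 and 13.9 CPM (-1.04 ± 0.25, 0.00549), with no overlap, and Anln had a log2 fold change of -1.0 ± 0.26 (0.00817). These 3 calls and that of Ncapd2 held with any library left out. Nusap1 (-1.03), Bub1 (-0.93) and Mki67 (-0.92, from 177 and 173 to 107 and 82.6 CPM) fell as well. The call of Nusap1 ended without library 1 of the 6 h imiquimod wounds (adjusted p = 0.0663), as did that of Bub1 (0.0507), and that of Mki67 ended without library 2 of it (0.11) or library 1 of day 30 imiquimod (0.0618). Top2a (-0.37), Cdk1 (-0.46), Ccnb1 (-0.43), Aurkb (-0.39) and Cdc20 (-0.32) did not pass, and Plk1 had the single positive value (0.32). The count was 7 without library 1 and 6 without library 2 of the 6 h imiquimod wounds, and 9 without library 1 of day 30 imiquimod or without both day 30 libraries numbered 1.

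At 12 h after prior imiquimod 34 of 43 were lower than at day 30 and 0 higher (79.1%, against 17.3% of all genes lower), with a median of -0.92. Kif23 went from 51 and 50.1 to 16.9 and 11.3 CPM (-1.90 ± 0.23, adjusted p = 6.1e-05), and Cdc25c from 9.52 and 10.9 to 3.59 and 2.67 CPM (-1.76 ± 0.28, 0.00037). Nusap1 (-1.62), Anln (-1.47), Cenpf (-1.46, from 43.9 and 42.6 to 19.2 and 13.5 CPM) and Cenpa (-1.45) followed. Mki67 went from 177 and 173 to 85.4 and 65.2 CPM (-1.27 ± 0.27, adjusted p = 0.00285) and Foxm1 from 25.4 and 31.8 to 14.7 and 8.68 CPM (-1.35 ± 0.25, 0.00119). Ccnb1 (-1.07), Cdc20 (-0.98), Cdk1 (-0.75) and Top2a (-0.56) fell too. Aurkb (-0.68, adjusted p = 0.0582, and 0.0262 with the replicate block) and Plk1 (-0.27, 0.498) did not pass. The values of Smc2 (0.12) and Ttk (0.01) were positive.

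All 6 cytokinesis, 6 kinetochore and 6 spindle genes fell at 12 h after prior imiquimod, with group medians of -1.32, -1.15 and -1.08. Chromosome structure genes fell in 3 of 7 cases (median -0.53). With any library left out 17 calls held, among them all 6 cytokinesis genes, Mki67, Foxm1, Cdc25c, Nusap1, Cenpf and Cenpa. The other 17 ended without library 2 of the 12 h imiquimod wounds, with an adjusted p of 0.0819 for Ccnb1, 0.0619 for Cdc20, 0.192 for Cdk1 and 0.286 for Top2a. Top2a had an adjusted p of 0.0638 and Tpx2 of 0.0627 with the replicate block. The count was 21 without both day 30 libraries numbered 1. The 6 h and 12 h comparisons of an arm share their day 30 libraries. Across them (6 h and 12 h in control skin, then 6 h and 12 h after prior imiquimod) the log2 fold change of Kif23 was -1.18, -1.59, -1.28 and -1.90. For Plk1 it was 0.59, 0.16, 0.32 and -0.27, which did not pass in any of them.

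**Figure D4:**
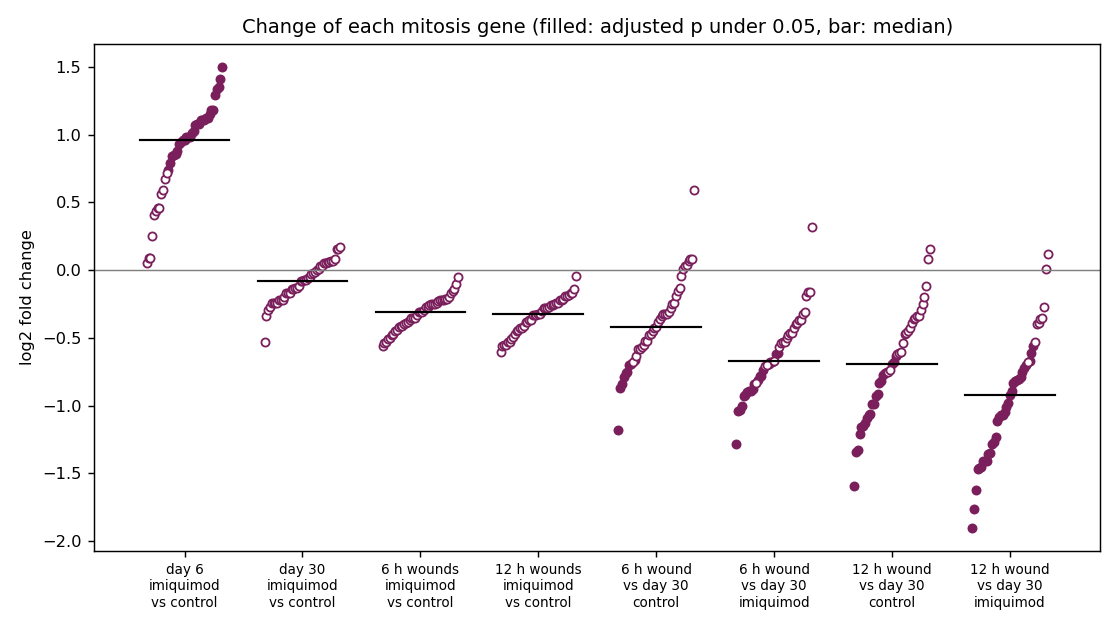
Log2 fold change (vertical) of each of the 43 genes in 8 comparisons (horizontal), sorted within a comparison. Filled points passed an adjusted p under 0.05 by edgeR and bars are medians. Filled points number 31 at day 6 and 9, 20, 22 and 34 in the comparisons of wounds with day 30, and 0 in the comparisons of imiquimod with control at day 30, 6 h and 12 h.

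The members called at day 6 and in wounds were set side by side, since the day 6 comparison shares no library with those of wounds. Of the 22 members lower at 12 h in control skin 13 had risen at day 6 (59.1% of the 22 and 41.9% of the 31). The other 9, Anln, Cdc25c, Cenpf, Ect2, Foxm1, Kif23, Nusap1, Prc1 and Spc25, had not passed at day 6. At 12 h after prior imiquimod 24 of the 34 lower members had risen at day 6 (70.6% of the 34 and 77.4% of the 31). At 6 h it was 3 of 9 in control skin (33.3%, and 9.68% of the 31) and 13 of 20 after prior imiquimod (65%, and 41.9% of the 31). These shares stand beside the 72.1% of all members that rose at day 6, and the differences were not tested. Plk1 had the largest rise at day 6 and a value of 0.16 at 12 h, whereas Kif23 had the largest fall at 12 h and a value of 0.09 at day 6.

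**Figure D5:**
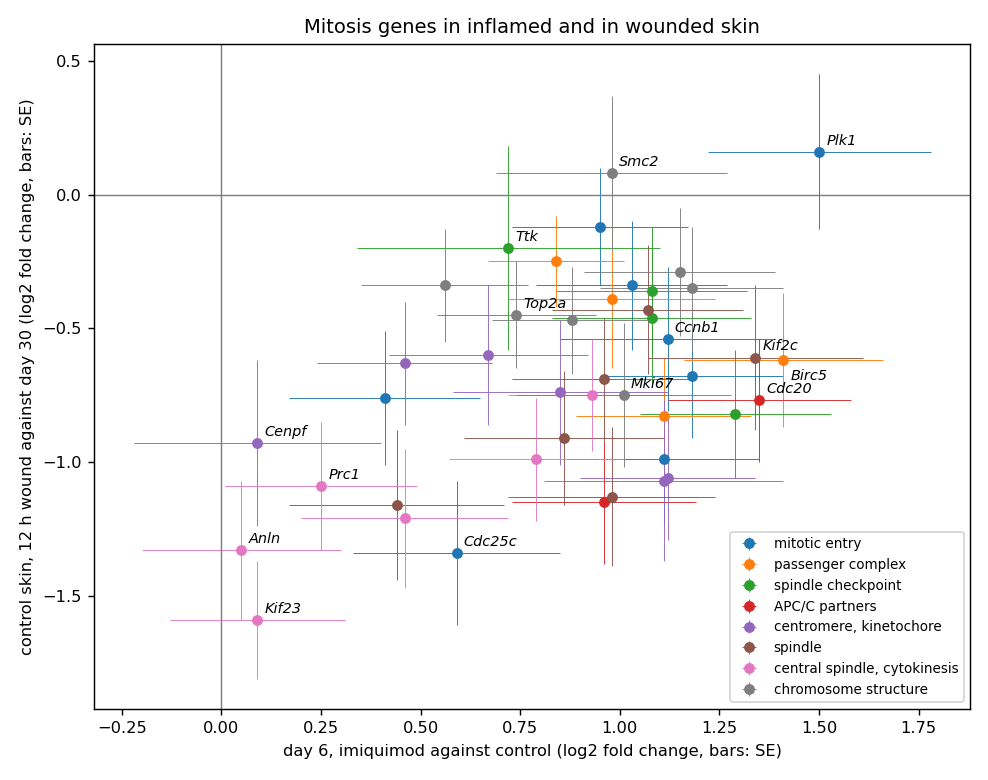
Log2 fold change of each gene at day 6 (imiquimod against control, horizontal) and at 12 h in control skin (wound against day 30, vertical), coloured by role, with SE bars. Kif23, Anln, Prc1 and Cenpf lie at the lower left (0.05 to 0.25 at day 6) and Plk1 at the upper right (1.50 and 0.16).

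The CHR letters in a promoter window, a trait that the list did not use, were set beside the response. The median log2 fold change was 0.96 in the 27 members with the letters and 1.12 in the 8 without at day 6, -0.75 and -0.61 at 12 h in control skin, and -1.01 and -0.87 at 12 h after prior imiquimod. These medians were not tested against each other.

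DNA replication genes went the other way from the mitosis genes at 12 h. Of the 38 replication genes 20 were higher and 0 lower in control skin (median 0.69, against 16.5% of all genes higher), and 26 were higher and 0 lower after prior imiquimod (median 0.85, against 20.3%). Their sum went from 1043 and 947 CPM at day 30 to 1907 and 1816 CPM in the 12 h control wounds, and from 1157 and 877 to 2060 and 1736 CPM after prior imiquimod. Ung, which removes uracil from DNA, went from 6.14 and 6.71 to 33.5 and 43.2 CPM in control skin (2.39 ± 0.27, adjusted p = 7.3e-05). The cyclin E gene Ccne1 went from 2.47 and 2.54 to 10.3 and 9.24 CPM (1.77 ± 0.32, 0.00121), and the replication fork gene Gins1 from 4.43 and 4.2 to 17 and 15.4 CPM (1.72 ± 0.22, 0.000169). Without 1 library the number higher in control skin was 9 to 12, and with both day 30 libraries numbered 1 left out it was 12. After prior imiquimod it was 8 without library 2 of day 30 imiquimod and 11 without library 1 of the 12 h wounds. At 6 h in control skin 2 of the 38 replication genes were higher, Ung (1.95) and Gins1 (1.28), with a median of 0.09. Tyms, of thymidylate synthesis, was lower (-0.91). Of all 17299 genes tested 3119 were higher and 2884 lower in that comparison.

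Other genes of G2 and mitosis fell with the members at 12 h, 31 of 80 in control skin (4 higher, Gtse1, Mybl2, Trip13 and Bub3, median -0.59) and 45 of 80 after prior imiquimod (3 higher, Gtse1, Cks1b and Bub3, median -0.79). Wee1 fell by 1.89 in control skin, from 87.7 and 49.5 to 16.3 and 26.2 CPM, and Pimreg and Cenpl fell by 2.23 and 2.15. Without 1 library the number lower in control skin ranged from 12 (without library 2 of the 12 h control wounds) to 32, and with library totals it was 17. Without library 2 of the 12 h imiquimod wounds it was 21 after prior imiquimod. Core genes of the anaphase-promoting complex (Anapc13 and Anapc5 lower and Anapc4 higher, of 14) and cohesin genes (Nipbl lower and Smc3 higher, of 10) had medians of -0.03 and 0.02 in control skin. Genes of the MuvB, pocket protein and E2F families went both ways (6 higher and 3 lower of 18), with E2f6 (1.53), E2f7 (1.37), E2f3 (1.34), E2f8 (1.26), E2f4 and Tfdp1 (0.93) higher and Tfdp2 (-1.09), E2f2 (-0.99) and Rbl2 (-0.57) lower. Of 11 inhibitors of cell division 6 were lower and 0 higher in control skin at 12 h. Btg2, an antiproliferative gene, went from 1887 and 2589 to 80.5 and 87.6 CPM (-4.92 ± 0.46), and Cdkn1a, which encodes p21, from 689 and 735 to 286 and 278 CPM (-1.53 ± 0.29).

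Markers of other cells moved with wounding as well. The summed suprabasal list stood at 15515 to 30944 CPM in the 4 day 30 libraries and at 6508 to 10474 CPM in the 8 wound libraries. The summed neutrophil list stood at 0.306 to 2.12 CPM at day 30 and at 73.4 to 174 CPM in wounds. Only 2 of its 8 genes were tested, and 1 was higher and 0 lower in each comparison of a wound with day 30. The defining markers Ly6g and Mpo stood at 0.108 CPM or less in every wound library. The summed macrophage list stood at 269 to 357 CPM at day 30 and at 256 to 577 CPM in wounds, with Adgre1 at 0.228 CPM or less in both. Of its 14 genes 7 were higher at 6 h and 3 at 12 h in control skin, 4 and 2 after prior imiquimod, and 0 lower in any of these. Of all 17299 genes tested 3119 were higher at 6 h and 2848 at 12 h in control skin, and 3485 and 3518 after prior imiquimod. The genes that were lower numbered 2884 and 2480 in control skin, and 3210 and 2994 after prior imiquimod. The summed fibroblast list stood at 101 to 313 CPM at day 30 and at 343 to 459 CPM in wounds. The summed T cell list stood at 228 CPM or less at day 30 and at 344 to 447 CPM in wounds, while Cd3e stayed at 0.167 CPM or less. The gene Thy1 is in both lists, so these sums are not separate measures of the cell types. Counts of genes did not always follow these sums. In control skin 3 fibroblast genes of 10 tested were higher at 6 h (median 3.18) and 2 at 12 h (0.95), and after prior imiquimod 1 and 2 were, with medians of -0.99 and -1.96. Of the 4 T cell genes tested 2 were lower at 6 h and 1 at 12 h in control skin, with 0 higher (medians -1.27 and -0.99). After prior imiquimod 1 was higher at 6 h, and 1 higher and 1 lower at 12 h. Suprabasal genes were lower in 6 of 10 cases at 6 h in control skin and in 3 of 10 in each of the other 3 comparisons, with 0 higher. Their part in the fall of the mitosis genes was not tested.

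The last comparisons asked whether prior imiquimod changed the members in wounded skin. At 6 h no member passed by edgeR (0 of 43, with 3 at an unadjusted p under 0.05 and 0 by DESeq2), against 0.0347% of all genes called. All 43 log2 fold changes were negative, from -0.56 to -0.05, with a median of -0.31. Of all 17299 genes tested 8810 were negative, with a median of -0.01. The 43 values come from the same libraries and are not separate observations. Top2a stood at 248 and 156 CPM in control and at 130 and 138 CPM in imiquimod wounds (-0.54 ± 0.20, adjusted p = 0.663), and Mki67 at 187 and 88.8 against 107 and 82.6 CPM (-0.50 ± 0.27, 0.875). This direction rested on a single library, since the median was 0.12 without library 1 of the 6 h control wounds and -0.67 without library 2. The remaining panel values at 6 h were -0.38 for Foxm1, -0.35 for Ccnb1, -0.25 for Aurkb, -0.21 for Cdk1 and Plk1 and -0.14 for Cdc20.

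At 12 h no member passed either (0 of 43, with 2 at an unadjusted p under 0.05 and 0 by DESeq2), against 0% of all genes. All 43 values were negative, from -0.60 to -0.04, with a median of -0.32, and they too come from the same libraries. Of all 17299 genes tested 8537 were negative, with a median of 0.00. Kif23 stood at 21.6 and 21.2 CPM in control and at 16.9 and 11.3 CPM in imiquimod wounds (-0.55 ± 0.22, adjusted p = 1), and Mki67 at 121 and 106 against 85.4 and 65.2 CPM (-0.53 ± 0.27, 1). In both genes the groups did not overlap. Foxm1 stood at -0.51, Plk1 and Ccnb1 at -0.37, Aurkb at -0.28, Cdk1 and Top2a at -0.24 and Cdc20 at -0.18. The median was -0.62 without library 1 of the 12 h imiquimod wounds and -0.12 without library 2.

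The wound response after prior imiquimod was then tested against that in control skin. By edgeR 0 of 43 members differed at 6 h and 0 at 12 h, with 0 at an unadjusted p under 0.05 and 0 by DESeq2 at both times, against 0% of all genes. The median differences were -0.23 and -0.27, and the former was 0.20 without library 1 of the 6 h control wounds. Without both day 30 libraries numbered 1 the medians were -0.14 and -0.15, with 0 members called and 0 unadjusted at both times. Between 6 h and 12 h, 0 members differed in control wounds (9 unadjusted, 0 by DESeq2, against 0.647% of all genes called) and 0 after prior imiquimod (10 unadjusted, 0 by DESeq2, against 0.173%). The medians were -0.31 and -0.32, and the first was 0.11 without library 1 of the 6 h control wounds. With no filter on low counts 1 and 2 members were lower at 12 h. With 2 libraries a group, values that miss the threshold do not show that the arms were alike.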

How the data were processed

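Raw read counts per gene for 16 libraries were used as the authors deposited them. Per the submitters' processing notes, STAR and the mm10 build were used, and the sources used here give no version. The labels' protocols name a TruSeq library kit that does not mark strand, so reads of overlapping genes cannot be told apart, and the sources used here do not state which column of the aligner's table was deposited. The 12 chromatin accessibility samples were not used here. Counts ranged from 23623968 to 76993427 per library, and 17299 of 30802 genes with a read passed filterByExpr (minimum count 10). Of 47729 gene IDs 47224 had a symbol.

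A single edgeR 4.0.16 quasi-likelihood model (R 4.3.3, TMM scaling, no intercept, 8 groups, 8 residual degrees of freedom) gave each comparison as a contrast, with Benjamini-Hochberg adjustment over all genes tested and a threshold of 0.05. The biological coefficient of variation was 23%. CPM are counts divided by library totals, without TMM, and fold changes are on the log2 scale of the model. Alternatives were RLE scaling, library totals, no filter, DESeq2 1.42.0, the compared libraries alone, a replicate block, leaving out each library, and leaving out both day 30 libraries numbered 1. Replicate numbers come from the labels. Same-numbered libraries of control and imiquimod deviated together (correlations of 0.203 at day 6, 0.353 at day 30, 0.494 at 6 h and 0.297 at 12 h). The main fit does not pair libraries by number, and its counts and p values ignore this. Only the alternative fit with the replicate block pairs them, and it has 4 residual degrees of freedom.

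The members and gene lists were chosen with earlier results of these data known. In each main comparison the text names a panel of 8 members (Mki67, Top2a, Cdk1, Ccnb1, Aurkb, Plk1, Cdc20 and Foxm1) up to 6 members per direction with the largest change among those that passed, each member that went against the direction of most called members, and up to 4 genes of each other list. Other members are named to complete their role, and were chosen after their values were seen. The comparison of control skin at day 30 and day 6 and the E2F letters were also added then. Promoter windows are RefSeq's for GRCm38.p6. On simulated counts the main edgeR fit was tested for imiquimod against control at day 6, with changes set, and at day 30, with none. The other contrasts, the alternative settings and the motif shares were not tested in this way.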

Additional observations from a re-analysis of the deposited data

Results flagged for a closer look

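The effect of imiquimod differed between day 6 and day 30 by the edgeR contrast of the 2 effects for 21 of the 43 members, all of them more positive at day 6. Among the named members the difference in log2 fold change was 1.56 for Bub1, 1.45 for Plk1, 1.37 for Ncaph, 1.36 for Birc5, 1.35 for Cdk1, 1.33 for Ncapg, 1.32 for Cdc20 and 0.87 for Top2a. No call of this contrast held with every library left out in turn. With 2 libraries a group, no test for an outlying library within a group was made.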

How the results depend on the processing

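With library totals in place of TMM scaling the number of members called was 1 at 6 h and 12 at 12 h in control wounds, 5 for the difference between the day 6 and day 30 effects and 28 for control skin at day 30 against day 6. Without the filter on low counts it was 19 for the last of these, and 1 and 2 for 12 h against 6 h in control and imiquimod wounds. In the fit with the replicate block, which pairs libraries by number, it was 15 at 6 h in control wounds, and no other count moved by more than a factor of 1.5. Calls of named members that changed with the block are given beside their values, and it changed no other call among them. With the compared libraries alone it was 1 at 6 h in control wounds. Without both day 30 libraries numbered 1 it was 2 and 14 in control wounds and 9 and 21 in imiquimod wounds (6 h and 12 h), 12 for the difference of effects and 5 for control skin over time. With each library left out in turn it ranged from 16 to 32 at day 6, from 1 to 29 (6 h) and 9 to 16 (12 h) in control wounds, from 6 to 16 and 17 to 35 in imiquimod wounds, from 0 to 19 for the difference of effects and from 2 to 11 for control skin over time. The lone library left in a group was assumed to vary like the other groups, and fewer samples were tested. For the other changes the cause was not tested. RLE scaling and DESeq2 kept every count within a factor of 1.5. Over the named members no called value changed sign. Under other settings 46 values no longer passed and 349 stayed on their side of the threshold, and with a library left out 78 and 186 did. Every member had reads in every library, the lowest level being 2.67 CPM (Cdc25c), and counting error was not separated from the spread between libraries.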
